A study of Mus musculus with 25 samples.

Results

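Caveolae are small flask-shaped pits of the plasma membrane, and the genes of their protein coat were followed in the RNA of 25 mouse hearts. The 8 genes were Cav1, Cav2 and Cav3 (caveolins), Cavin1, Cavin2, Cavin3 and Cavin4 (cavins) and Ehd2, found by symbol among the 56941 Ensembl genes of the count table. All 8 were among the 17682 genes with enough reads to be tested. The group was chosen by the measured level of Cav2, which was lower with saline than without a pump in wild-type (WT) hearts, so every value of that contrast is given as a description only.

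The hearts came from WT mice and from mice labelled MCT1KO, for MCT1, the lactate and pyruvate transporter encoded by Slc16a1. They were taken without a pump (4 WT, 3 MCT1KO), with a saline pump (6 WT, 4 MCT1KO), or with a pump giving Ang/PE (3 WT, 5 MCT1KO), neurohormonal agonists that cause hypertrophy of the heart muscle. The strain, sex, age, dose, infusion time and the part of the heart taken are not given in the labels, nor is the cell type in which the transporter was deleted. Total RNA was depleted of ribosomal RNA and made into strand-specific libraries, which gave 12216704 to 24880683 counted reads per heart.

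Caveolins are hairpin proteins that insert into the inner leaflet of the membrane and assemble into the scaffold of the pit, while cavins bind from the cytosol as an outer coat and Ehd2 is an ATPase that collars the neck and holds the pit at the surface. Cav1 and Cav2 are known chiefly from endothelial cells, adipocytes, fibroblasts and smooth muscle, whereas Cav3 and Cavin4 belong to striated muscle, so whole heart RNA mixes several kinds of caveolae. Caveolae flatten when the membrane is stretched, and they hold receptors and enzymes such as endothelial nitric oxide synthase. In whole tissue, fewer cells of a type and less RNA per cell cannot be told apart.

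The upstream sequences of 4 members are shown. They make up Cav1 with Cav2 and Cav3 with Cavin4, 2 of the 3 pairs that rose and fell together from heart to heart. For the remaining pair, Cav1 with Ehd2, the Ehd2 sequence is not shown. Each line holds the 250 bases before the annotated start, 5′ to 3′ on the coding strand (plus for all 4), from RefSeq for assembly GRCm38.p6. Capitals mark every match to GGGCGG (the GC box), CCAAT (the box named for these letters) or TATAAA (the TATA box) on either strand. Cav2 and Cav1 are neighbours on chromosome 6, in the order Tes, Cav2, Cav1, Met, and Cav3 lies further along the same chromosome. The windows are chr6:17306085-17306334 for Cav1, chr6:17280935-17281184 for Cav2, chr6:112459255-112459504 for Cav3 and chr4:48663264-48663513 for Cavin4.
Cav1: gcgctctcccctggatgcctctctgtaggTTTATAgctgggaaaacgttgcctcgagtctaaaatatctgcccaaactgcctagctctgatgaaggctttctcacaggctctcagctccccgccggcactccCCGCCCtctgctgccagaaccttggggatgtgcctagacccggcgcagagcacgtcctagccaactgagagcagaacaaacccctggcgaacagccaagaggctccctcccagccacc
Cav2: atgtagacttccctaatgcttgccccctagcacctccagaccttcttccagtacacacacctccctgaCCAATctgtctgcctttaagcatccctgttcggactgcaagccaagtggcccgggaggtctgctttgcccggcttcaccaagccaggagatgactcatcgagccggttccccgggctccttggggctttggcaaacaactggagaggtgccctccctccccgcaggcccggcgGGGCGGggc
Cav3: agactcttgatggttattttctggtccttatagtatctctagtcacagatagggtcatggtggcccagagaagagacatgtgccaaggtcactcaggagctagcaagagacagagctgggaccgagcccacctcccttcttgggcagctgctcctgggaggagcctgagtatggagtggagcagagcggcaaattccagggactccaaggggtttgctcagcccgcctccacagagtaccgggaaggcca
Cavin4: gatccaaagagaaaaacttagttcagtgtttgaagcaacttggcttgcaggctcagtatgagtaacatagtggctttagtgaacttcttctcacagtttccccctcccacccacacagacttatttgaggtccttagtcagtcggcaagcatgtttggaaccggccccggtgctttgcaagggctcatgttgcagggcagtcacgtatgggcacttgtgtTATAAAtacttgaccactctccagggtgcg
The Cavin4 window held TATAAA 30 bases before the start, and the Cav2 window held a GC box 9 bases and a CCAAT box 182 bases before it. In Cav1 the GC box lay 118 bases and a reverse-strand TATA match 221 bases before the start, and the Cav3 window held none of the 3 motifs. Of the 7 members with an entry, 4 held a GC box, 4 a CCAAT box and 2 a TATA box. Among all 32851 windows of the same length in that table the shares were 32.7%, 33.8% and 12.4%. The matches describe letters only.

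Some features of the series bear on these genes. Slc16a1 was at 158 to 199.8 CPM (counts per 1000000 counted reads; group means) in the hearts labelled MCT1KO and at 199 to 214 CPM in WT, so genotype rests on the labels. Saline replicate 4 of the hearts labelled MCT1KO stood apart: its 9 adipocyte markers summed to 2267 CPM, against 13.9 to 120.3 CPM in the other 3 hearts of its group, and its 3 atrial markers to 3679 CPM, against 1.5 to 695 CPM. The sum of its 10 cardiomyocyte markers was 36295 CPM, against 58174 to 64412 CPM. No heart without a pump or with Ang/PE exceeded 18.6 CPM for the adipocyte or 5.73 CPM for the atrial markers. Cardiomyocyte and endothelial markers were present in every heart (14 endothelial markers, 1443 to 1889 CPM in sum), and 5 lung epithelial markers summed to at most 1.71 CPM.

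Per length, Cavin1 had the highest level of the 8 coat genes and Cavin3 the lowest. Averaged over the 25 hearts, the level in CPM per kilobase of transcript was 88.5 ± 8.98 (SD) for Cavin1, 67.0 ± 14.8 for Cav1, 44.1 ± 11.7 for Cavin4, 42.2 ± 7.18 for Cavin2, 29.5 ± 5.28 for Cav3, 29.1 ± 2.81 for Ehd2, 14.5 ± 4.07 for Cav2 and 9.30 ± 1.77 for Cavin3. The neighbours Cavin4 and Cavin2, and Cav3 and Ehd2, did not differ beyond their spread. Of the summed caveolin level, Cav1 made up 59.9%, the muscle gene Cav3 27.2% and Cav2 12.9% (means over hearts). Of the summed cavin level, Cavin1 made up 48.1%, Cavin4 23.8%, Cavin2 23% and Cavin3 5.07%. Cavin1 binds caveolae of every tissue, and the others are thought to tune the coat. The share of Cavin2 was 24.6% ± 1.66 in WT hearts without a pump, 19.8% ± 4.66 in WT and 18% ± 3.11 in MCT1KO hearts with Ang/PE.

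**Figure D1:**
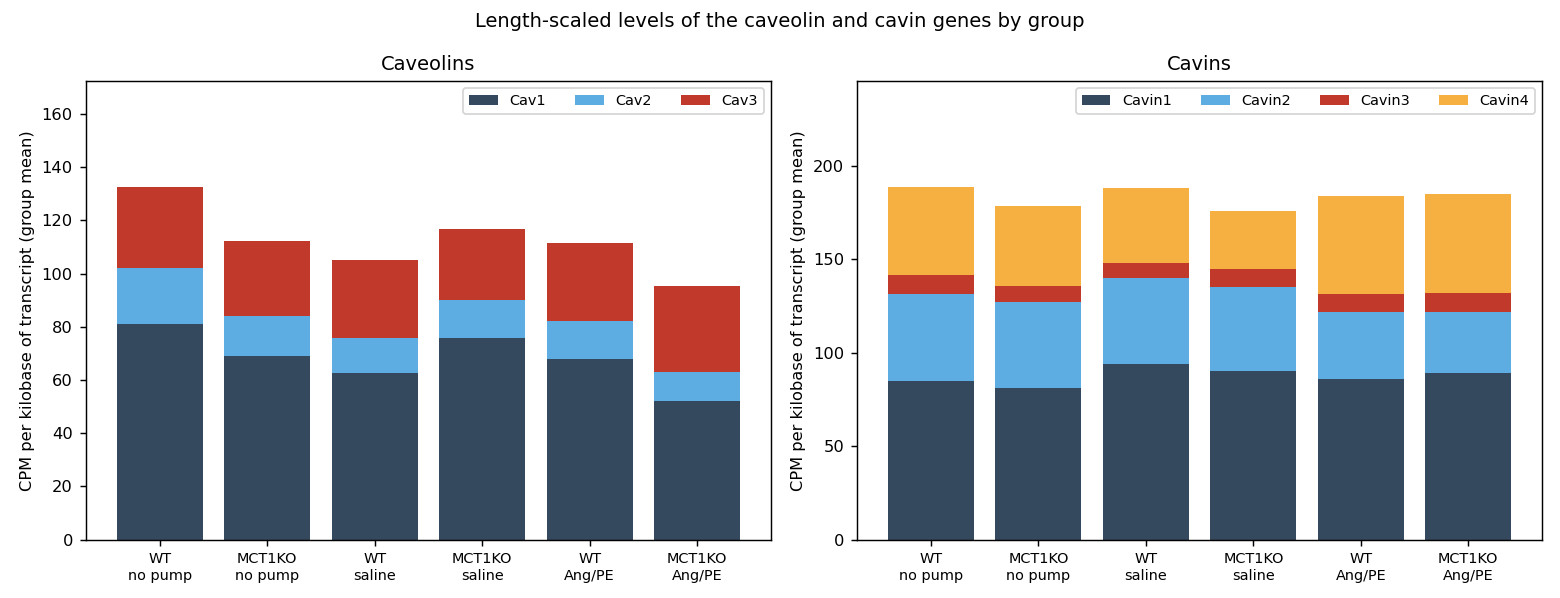
Stacked bars give the group means of CPM per kilobase of transcript for the 3 caveolin genes (left) and the 4 cavin genes (right) in the 6 groups. Cav1 and Cavin1 are the largest layers in every group, and the Cavin2 layer is thinner in both Ang/PE groups (35.5 and 32.9) than in the other 4 (45.4 to 46.5).

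The 8 genes differed in how far the 6 group means lay apart. The ratio of the highest to the lowest group mean was 1.95 for Cav2, 1.71 for Cavin4, 1.55 for Cav1, 1.41 for Cavin2, 1.27 for Cavin3, 1.22 for Cav3, 1.16 for Cavin1 and 1.12 for Ehd2. The value of Cav2 comes from WT hearts without a pump, a group of the contrast that chose the genes, so its place in this order is no finding. With every heart included, the structural cavin Cavin1 and the neck ATPase Ehd2 thus had the lowest ratios. For Cav3 and Cavin4 the lowest group mean was that of MCT1KO hearts with saline. That group holds saline replicate 4, the lowest heart of the series for both genes. The ratios were not computed without that heart, so the places of Cav3 and Cavin4 in this order may rest on it. Levels from here on are in CPM and are compared within a gene only.

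**Figure D2:**
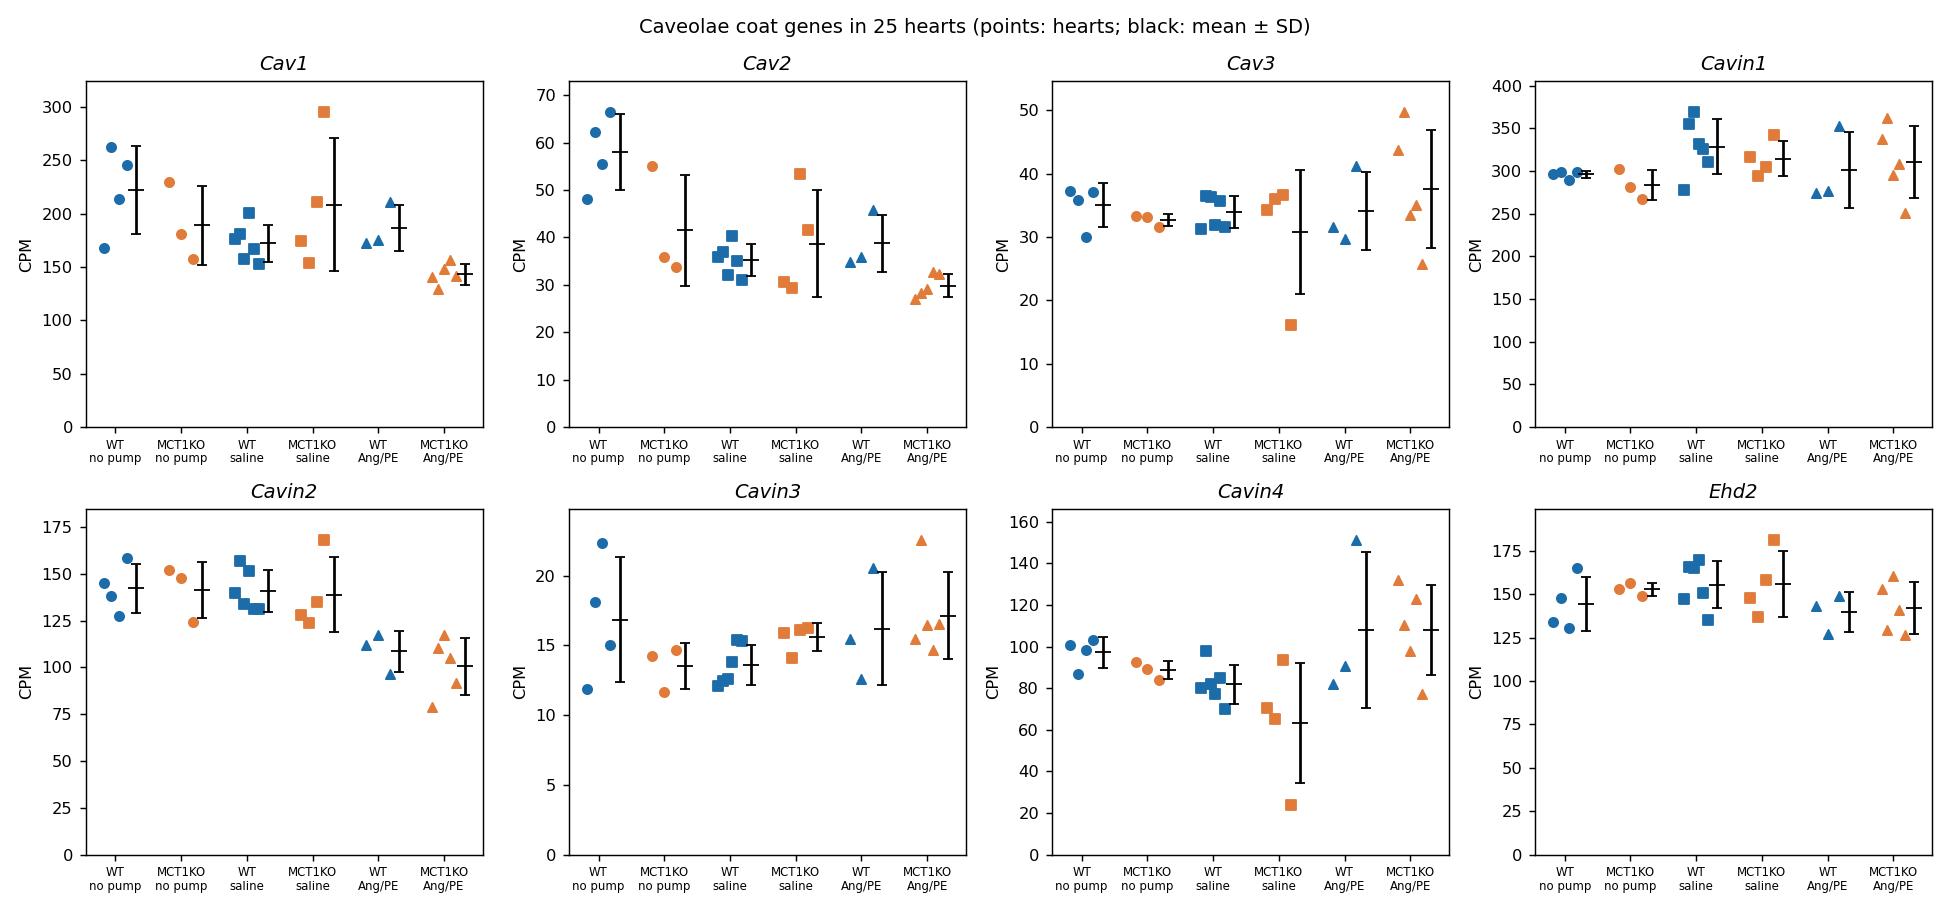
CPM of each coat gene in every heart (points; blue WT, orange MCT1KO; circles no pump, squares saline, triangles Ang/PE) with the group mean and SD in black. The Ang/PE triangles lie below the other points for Cavin2, at 79.1 to 118 CPM, and the lowest Cav3 and Cavin4 points, 16.1 and 24 CPM, are the same MCT1KO saline heart.

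Cavin2, the cavin that shapes the curved membrane of the pit, was lower with Ang/PE in both genotypes. In MCT1KO hearts it was at 128, 124, 135 and 168 CPM with saline and at 79.1, 110, 117, 105 and 91.9 CPM with Ang/PE. Every Ang/PE heart lay below every saline heart, as was so for 2.36% of all tested genes. The means were 139 ± 20.01 CPM (SD, n = 4) and 101 ± 15.2 CPM (n = 5), and the log2 fold change was −0.46 (SE 0.11, edgeR adjusted p 0.0203). In WT hearts Cavin2 ran from 131 to 157 CPM with saline (median 137) and was at 112, 118 and 96.3 CPM with Ang/PE, again with no overlap. The WT change was −0.38 (SE 0.12) and missed the threshold of an adjusted p below 0.05 (edgeR adjusted p 0.102). It was −0.28 without WT Ang/PE replicate 3 and −0.25 with the Xist level as a covariate. Xist was present in 1 of 6 WT saline hearts and in 3 of 3 WT Ang/PE hearts. Of all tested genes, 7.16% were non-overlapping and lower in that WT comparison and 0.0170% passed its test in either direction. Cavin2 was the only coat gene at an unadjusted p below 0.05 there, where 19.1% of all genes stood.

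Without a pump Cavin2 was at 145, 138, 127 and 159 CPM in WT and at 152, 148 and 124 CPM in MCT1KO hearts. These ranges lay above those with Ang/PE of the same genotype. The change of Ang/PE against no pump was −0.49 (SE 0.12, edgeR adjusted p 0.0579) in MCT1KO and −0.39 (SE 0.13, edgeR adjusted p 0.448) in WT hearts. These comparisons share their Ang/PE hearts with those above. The interaction of genotype and Ang/PE for Cavin2 was −0.09 (95% confidence interval −0.42 to 0.24, edgeR adjusted p 0.836), so no difference between the genotypes was detected.

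Cav1, the main caveolin outside muscle cells, was lower with Ang/PE than with saline in MCT1KO hearts. It was at 174, 154, 211 and 295 CPM with saline and at 141, 129, 148, 157 and 142 CPM with Ang/PE. Saline replicate 4 was the highest heart of the series, and saline replicate 2 lay inside the Ang/PE range. The means were 209 ± 62.3 CPM (n = 4) and 143 ± 10.1 CPM (n = 5), and the log2 fold change was −0.54 (SE 0.15, edgeR adjusted p 0.0416). In WT hearts Cav1 ran from 153 to 200.4 CPM with saline (median 171) and was at 173, 175 and 211 CPM with Ang/PE. These WT groups overlapped, and the change was 0.11 (SE 0.16, edgeR adjusted p 0.748). The interaction of genotype and Ang/PE was −0.65 (SE 0.22, edgeR adjusted p 0.294), −0.45 without MCT1KO saline replicate 4 and −0.23 with the atrial and adipocyte marker levels as covariates, with no coat gene and 0% of all genes past the threshold. At an unadjusted p below 0.05 stood 13.5% of all genes and, leaving aside Cav2, whose WT saline hearts chose it, Cav1 alone of the members.

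Cav1 and Cavin2 were thus the 2 of 8 coat genes called for Ang/PE against saline in MCT1KO hearts, both lower, where 2.70% of all tested genes were called lower and 4.46% in either direction. At an unadjusted p below 0.05 stood these 2, Cav2 (lower) and Cavin4 (higher), beside 20.4% of all genes. The median change of the 8 was −0.08, beside −0.01 over all tested genes. Both calls rested on saline replicate 4 of that group. Without it the changes were −0.33 for Cav1 (edgeR adjusted p 0.267) and −0.36 for Cavin2 (edgeR adjusted p 0.121). With the atrial and adipocyte marker levels as covariates they were −0.30 (edgeR adjusted p 0.598) and −0.33 (edgeR adjusted p 0.488). Without Ang/PE replicate 5 neither gene passed, and Cav1 also missed the threshold without any other single Ang/PE heart of the group (edgeR adjusted p 0.0523 to 0.0708). With the replicate block, Cav1 was at −0.50 (edgeR adjusted p 0.0624) and Cavin2 at −0.43 (edgeR adjusted p 0.0362). In the fit of only these 2 groups, the values were −0.56 (edgeR adjusted p 0.226) and −0.48 (edgeR adjusted p 0.214).

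The markers of fat and atrium moved in the same comparison. All 8 tested adipocyte markers and all 3 atrial markers were lower with Ang/PE in MCT1KO hearts, and the defining brown fat gene Ucp1 was at 0 in all 5 Ang/PE hearts and reached 551 CPM in saline replicate 4. Of the 14 endothelial markers 0 were called in edgeR (2 higher and 1 lower at an unadjusted p below 0.05), and their sum ran from 1533 to 1765 CPM with saline and from 1443 to 1838 CPM with Ang/PE. Of 5 mesothelial markers 1 was called lower, Upk3b, at −4.71 (SE 1.29, edgeR adjusted p 0.0423). In WT hearts, too, all 8 adipocyte (median −3.43) and all 3 atrial markers (median −9.79) had negative changes for Ang/PE against saline. There 0 of them were called. The 3 atrial markers stood at an unadjusted edgeR p below 0.05, beside 19.1% of all genes.

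Against hearts without a pump, Cav1 was again lower with Ang/PE in the MCT1KO group, but not past the threshold. The MCT1KO hearts without a pump were at 230, 181 and 157 CPM, all above the Ang/PE hearts. The lowest of them exceeded the highest Ang/PE heart by less than 1 CPM. The change was −0.40 (SE 0.16, edgeR adjusted p 0.275), and −0.24 without no pump replicate 1 (edgeR adjusted p 0.694). For WT it was −0.26 (SE 0.17, edgeR adjusted p 0.693), with 168, 263, 213 and 246 CPM without a pump, and −0.17 without no pump replicate 2.

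**Figure D3:**
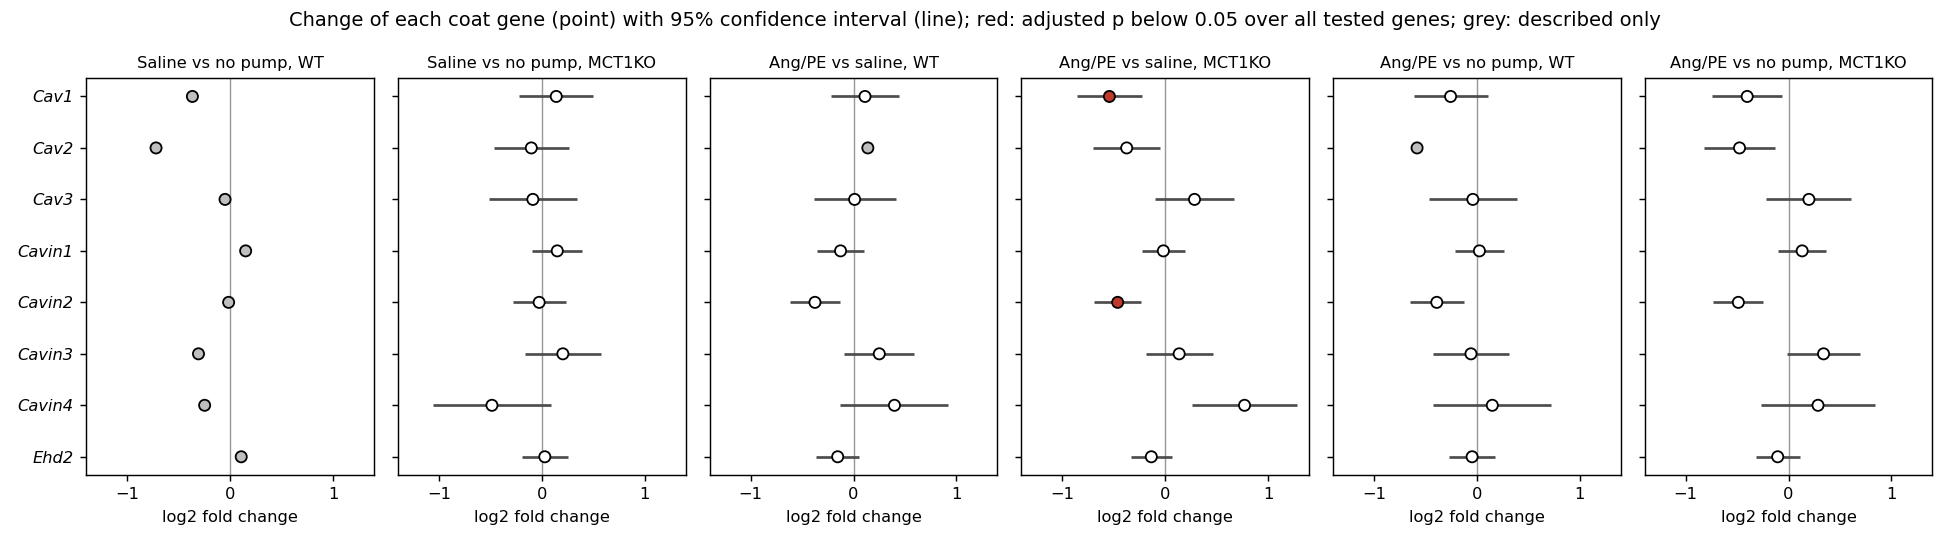
Points give the log2 fold change of each coat gene in 6 comparisons, with lines for the 95% confidence interval. Red marks an edgeR adjusted p below 0.05 over all tested genes, and grey marks values from the hearts by which the genes were chosen. Cav1 and Cavin2 are red for Ang/PE against saline in MCT1KO hearts, and Cavin2 lies between −0.49 and −0.38 in all 4 Ang/PE panels.

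Cav2, the partner that reaches the surface in complexes with Cav1, had its highest levels in WT hearts without a pump. Those 4 hearts were at 48.1, 62.3, 55.6 and 66.4 CPM, and the 6 WT saline hearts ran from 31.1 to 40.2 CPM (median 35.5). The groups did not overlap, and their means were 58.1 ± 8.02 CPM and 35.2 ± 3.31 CPM, a log2 difference of −0.72 (SE 0.15). This is the contrast that chose the genes and no test is given. Of all tested genes, 6.61% passed the threshold and 6.22% were lower without overlap in this contrast. In the same contrast Cav1 differed by −0.37, Cavin3 by −0.31, Cavin4 by −0.25 and Cav3 by −0.05, with Cavin1, Cavin2 and Ehd2 at 0.15, −0.01 and 0.11. The level of Cav2 relative to Cav1, in counts per length, was 0.265 ± 0.0206 in WT hearts without a pump and 0.191 to 0.219 in the means of the other 5 groups.

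In WT hearts with Ang/PE, Cav2 was at 34.8, 35.9 and 45.7 CPM, inside or just above the saline range and below all 4 hearts without a pump. As these comparisons reuse the WT hearts that chose the gene, the changes of 0.14 against saline and −0.58 against no pump are given without a test. MCT1KO hearts were at 55.0, 35.8 and 33.8 CPM without a pump, at 30.6, 29.3, 53.4 and 41.6 CPM with saline and at 27.0, 28.2, 29.1, 32.6 and 32.2 CPM with Ang/PE. The first 2 of these groups overlapped widely, and the change of saline against no pump was −0.10 (SE 0.18, 95% confidence interval −0.47 to 0.26, edgeR adjusted p 0.872). The difference between the genotypes in this step, 0.62 (SE 0.23), contains the WT contrast and is given without a test.

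All 5 MCT1KO hearts with Ang/PE had less Cav2 than the 3 without a pump. The change was −0.48 (SE 0.17, edgeR adjusted p 0.198), and against saline it was −0.37 (SE 0.16, edgeR adjusted p 0.173). The first was −0.22 without no pump replicate 1 and the second −0.19 without saline replicate 3, the hearts with the most Cav2 in their groups. In MCT1KO hearts, Ang/PE against no pump left Cav1, Cav2 and Cavin2 lower without overlap, 3 of the 8 coat genes, where 3.96% of all tested genes did the same. None of the 3 passed the edgeR test there, which called 0.503% of all genes, and all 3 stood at an unadjusted p below 0.05, as 13.1% of all genes did. In WT hearts the same comparison separated Cavin2, with 7.07% of all genes lower without overlap and 0% called. Cav2 was separated too, but its WT hearts without a pump chose it, so that is a description only. Of the other 7 coat genes only Cavin2 stood at an unadjusted p below 0.05 there, beside 9.02% of all genes.

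The genotypes were compared within each treatment. Under Ang/PE the 5 MCT1KO hearts lay below the 3 WT hearts for Cav1 (129 to 157 against 173 to 211 CPM) and for Cav2 (27.0 to 32.6 against 34.8 to 45.7 CPM). The changes were −0.38 (SE 0.16) for Cav1 and −0.38 (SE 0.17) for Cav2, both with an edgeR adjusted p of 0.711. With GC and length offsets the Cav2 value was −0.22. Of all tested genes, 2.10% were lower in MCT1KO without overlap, 0% were called and 6.92% stood at an unadjusted p below 0.05, as Cav1 and Cav2 did. The other 6 coat genes overlapped, with changes from −0.11 for Cavin2 to 0.14 for Cav3. Without a pump and with saline no coat gene separated the genotypes, where 11.5% and 2.88% of all genes did, and 0 of 8 passed in edgeR. At an unadjusted p below 0.05 stood 0 coat genes in saline (17% of all genes) and, leaving Cav2 aside, 0 without a pump (12.2% of all genes).

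The muscle genes Cav3 and Cavin4 did not follow Cav1 and Cav2. Cavin4, the cavin of striated muscle that sits along the T-tubules, was at 70.4, 65.4, 93.5 and 24 CPM in MCT1KO hearts with saline and at 132, 110, 97.8, 123 and 77.3 CPM with Ang/PE. The groups overlapped through saline replicate 3 and Ang/PE replicate 5. The change was 0.77 (SE 0.25, edgeR adjusted p 0.0760), with DESeq2 it was 0.77 (adjusted p 0.0274), and without saline replicate 4 it was 0.50 (edgeR adjusted p 0.193). Without saline replicate 3 it was 1.01 (edgeR adjusted p 0.0162). With the atrial and adipocyte covariates it was 0.14 (edgeR adjusted p 0.897).

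In WT hearts Cavin4 ran from 70.0 to 97.9 CPM with saline (median 80.9) and was at 82.0, 90.8 and 151 CPM with Ang/PE. One Ang/PE heart lay above and the others inside the saline range, and the change was 0.40 (SE 0.25, edgeR adjusted p 0.400). It was 0.09 without that heart, replicate 3, 0.20 with the replicate block and 0.08 with the Xist level as a covariate. Without a pump Cavin4 was at 101, 86.7, 98.5 and 103 CPM in WT and at 92.5, 89.5 and 83.8 CPM in MCT1KO. Against these hearts the Ang/PE change was 0.15 (SE 0.28) in WT and 0.29 (SE 0.27) in MCT1KO, with edgeR adjusted p of 0.917 and 0.726. Neither direction held throughout, as the WT change was −0.16 without Ang/PE replicate 3 and −0.05 with the Xist level as a covariate, and the MCT1KO change was −0.02 with that covariate (Xist was present in 0 of 3 MCT1KO hearts without a pump and in 4 of 5 with Ang/PE).

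Cav3, the caveolin of muscle fibres, was at 34.2, 36.1, 36.7 and 16.1 CPM in MCT1KO hearts with saline and at 43.7, 49.6, 33.4, 35.1 and 25.8 CPM with Ang/PE. Its 2 highest hearts of the series were Ang/PE replicates 1 and 2, and its lowest was saline replicate 4. The change was 0.29 (SE 0.18, edgeR adjusted p 0.399), 0.07 without that heart and −0.10 with the atrial and adipocyte covariates. In WT hearts Cav3 was at 37.3, 35.9, 30.0 and 37.1 CPM without a pump, at 31.2 to 36.5 CPM with saline (median 33.8) and at 31.6, 29.7 and 41.2 CPM with Ang/PE. These 3 groups overlapped, with changes between −0.05 and 0.01 among them. MCT1KO hearts without a pump were within 31.6 to 33.3 CPM.

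Cavin1, which every caveola needs, stayed between 251 and 369 CPM in the 25 hearts. Its group means ran from 283 ± 17.4 CPM (MCT1KO, no pump) to 329 ± 32.3 CPM (WT, saline). The Ang/PE change against saline was −0.13 (95% confidence interval −0.35 to 0.10) in WT and −0.02 (−0.23 to 0.19) in MCT1KO hearts, with edgeR adjusted p of 0.553 and 0.949. Ehd2 ran from 126 to 181 CPM, and its Ang/PE changes were −0.15 (−0.36 to 0.06) and −0.13 (−0.33 to 0.06), with edgeR adjusted p of 0.418 and 0.450. For both genes these intervals leave room for shifts of up to about the sizes printed.

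Cavin3, a cavin that binds protein kinase C delta, had the fewest reads of the 8, with at least 169 counts in every heart. It ran from 11.7 to 22.6 CPM, and the within-group range was widest in WT hearts without a pump, at 11.9, 18.1, 22.4 and 15.1 CPM. The Ang/PE change against saline was 0.25 (SE 0.16, edgeR adjusted p 0.416, and 0.06 without Ang/PE replicate 3) in WT and 0.14 (SE 0.16, edgeR adjusted p 0.680) in MCT1KO hearts. Against no pump it was −0.06 (SE 0.18, edgeR adjusted p 0.958) and 0.34 (SE 0.17, edgeR adjusted p 0.407), the latter 0.22 without Ang/PE replicate 2. For saline against no pump in MCT1KO hearts, 0 of the 8 coat genes passed in edgeR or stood at an unadjusted p below 0.05, beside 0.00566% and 12.1% of all genes. The changes there ran from −0.49 (SE 0.28) for Cavin4, which was −0.21 without saline replicate 4 and 0.16 with the atrial and adipocyte covariates, to 0.20 (SE 0.18) for Cavin3, and no group pair separated, against 8.60% of all genes.

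Other genes that work with the coat were read from 3 lists. Of 12 accessory proteins (pacsins, other Ehd proteins, Popeye proteins, flotillins and Ror1), 1 was called higher for Ang/PE against saline in MCT1KO hearts, the Popeye gene Popdc3 at 0.60 (SE 0.16, edgeR adjusted p 0.0305), where 4.46% of all tested genes were called in either direction. The list's median change was 0.27 there, beside −0.01 over all genes. Against no pump 1 of 12 was called, Ehd4, a membrane-shaping relative of Ehd2, at 0.83 (SE 0.18, edgeR adjusted p 0.0324), beside 0.503% of all tested genes. Of 14 membrane repair and T-tubule genes, 1 was called higher for Ang/PE against saline in MCT1KO hearts, beside the same 4.46% of all tested genes. It was Trim72, which seals membrane wounds, at 0.64 (SE 0.16, edgeR adjusted p 0.0246), with a list median of 0.26. For Popdc3 and Trim72 no values without saline replicate 4 of that group are given.

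Of 18 receptors and signalling proteins known to bind caveolins, 0 were called for Ang/PE in either genotype against saline or no pump. At an unadjusted p below 0.05 stood 6 higher and 1 lower for Ang/PE against saline in MCT1KO hearts, and 4 higher and 3 lower in WT, where 20.4% and 19.1% of all tested genes stood in either direction. Among 10 cardiomyocyte markers 1 was called higher in that MCT1KO comparison, the Z-disc gene Actn2 at 0.68 (SE 0.15, edgeR adjusted p 0.0169), and all 10 had positive changes with a median of 0.35. These markers, Popdc3, Trim72 and Cavin4 were compared with the same saline group, which holds replicate 4 with its low cardiomyocyte marker sum. The part of that heart in the counts was not tested beyond the values without it given for the coat genes.

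Heart to heart, within groups, the coat genes moved in a few pairs. Deviations of log2 CPM from the group means were correlated over the 25 hearts for all 28 pairs of members, with 100000 permutations within groups and Benjamini-Hochberg adjustment over the pairs. Cav1 and Cav2 had Pearson's r = 0.78 (permutation p 0.0016, adjusted 0.0179) and Spearman's rho = 0.90 (permutation p 3e-05, adjusted 0.00084). Without the 2 hearts farthest from the median of Cav1, r was 0.82. Cav3 and Cavin4 had r = 0.87 (permutation p 0.0019, adjusted 0.0179) and rho = 0.79 (permutation p 0.0018, adjusted 0.0168), and r was 0.70 without the 2 farthest hearts. Cav1 and Ehd2 had r = 0.66 (permutation p 0.0013, adjusted 0.0179) and rho = 0.64 (permutation p 0.0016, adjusted 0.0168), and r was 0.52 without the 2 farthest hearts.

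These were the 3 of 28 pairs past an adjusted p of 0.05. The share of such pairs among other genes was not computed, so the count is not particular to the coat genes. Without saline replicate 4 of the MCT1KO hearts, which has the series' highest Cav1, Cavin2 and Ehd2 and lowest Cav3 and Cavin4, the 3 values were 0.87, 0.68 and 0.56. In the 24 other hearts Cav3 also had r = 0.86 with Cavin1, against 0.39 over all 25, and Cavin4 had 0.70 with Cavin1, against 0.23. The caveolins Cav1 and Cav3 had r = −0.44 over all hearts and 0.01 without that heart.

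**Figure D4:**
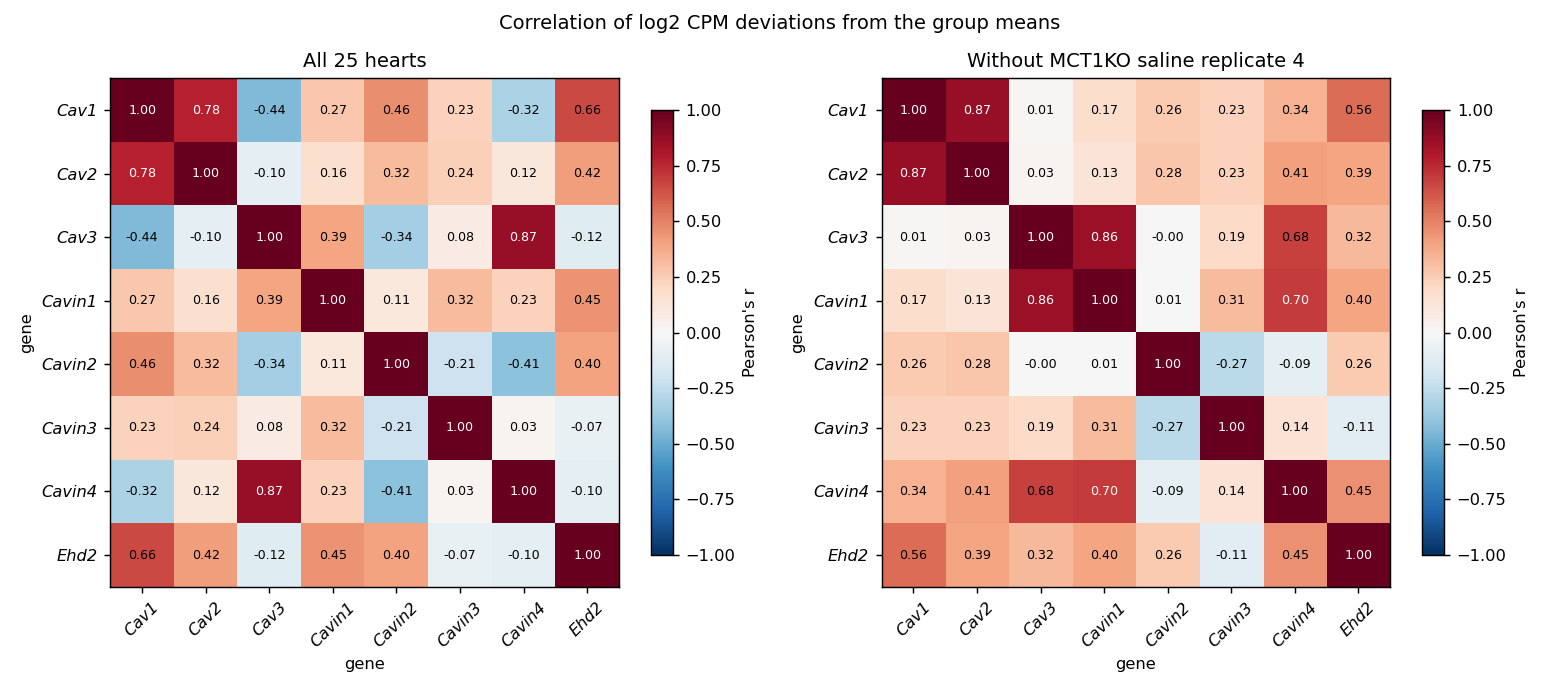
Each cell gives Pearson's r between the log2 CPM deviations of a pair of coat genes, over 25 hearts (left) and over 24 without saline replicate 4 of the MCT1KO hearts (right). The pairs Cav1 with Cav2 (0.78 and 0.87) and Cav3 with Cavin4 (0.87 and 0.68) stay high in both panels, while Cav3 with Cavin1 goes from 0.39 to 0.86.

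The genes most like 4 of the members were ranked by the same r among 11582 genes, as a description. For Cav1 they were Fabp4 (0.83), Amy1 (0.82) and Spaca6 (0.82). For Cav2 they were Pdgfd (0.90), Tmod3 (0.87) and Arhgap12 (0.86). For Cav3 they were Gsto1 (0.93), Eif5a (0.92) and Psmb4 (0.92), and for Cavin4 Gsto1 (0.94), Myl12a (0.93) and Paip1 (0.92). Without the outlying saline heart the values for Cav2 were 0.86 to 0.91, those for Cav1 0.71 to 0.73, and those for Cav3 and Cavin4 0.78 to 0.89. The genes that flank the caveolin pair were at low levels, with group means from 4.27 to 7.93 CPM for Tes and from 1.83 to 6.79 CPM for Met, and edgeR called neither in any comparison of 2 groups.

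Cav2 had an AT-rich transcript, and within groups its level ran against a GC index computed from the counts. Its longest transcript has 37.5% GC, at percentile 2.22 of 12815 genes with a median of 49.3%. Cav1 has 42.6%, Cavin2 44.4% and Cavin4 47.8%, and the other 4 members lie between 54.5% and 57.3%. A GC index was computed for each library as the rank correlation, over those genes, of transcript GC content with the gene's deviation from its mean over all hearts, so that a positive index marks a library in which GC-rich genes read high. Within groups Cav2 had r = −0.70 with this index (permutation p 0.0017, adjusted over the 8 members 0.0138) and rho = −0.69 (permutation p 0.0025, adjusted 0.0145). Without the 2 hearts farthest from the median index r was −0.67. By the way the index is made, AT-rich genes such as Cav2 and Cav1 tend towards a negative r. The permutation p therefore does not set Cav2 apart from other genes of like GC content, whose r was not computed. As the index is computed from expression values, a library effect and a change in the expression of AT-rich genes cannot be told apart.

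For Cav1 the values were r = −0.51 (permutation p 0.03, adjusted 0.122) and rho = −0.64 (permutation p 0.0036, adjusted 0.0145). For the other 6 members r lay between −0.04 and 0.22. The index of the WT hearts without a pump ran from −0.29 to −0.05, and that of the WT saline hearts from −0.08 to 0.38, so the index moved with the contrast that chose the genes. The 3 atrial markers moved with it too, at 1.51 to 1.95 CPM in sum without a pump and 2.03 to 1136 CPM with saline. With GC and length offsets the Cav2 difference in that contrast was −0.40, and with atrial and adipocyte covariates −0.44, in place of −0.72. Among MCT1KO hearts, the 2 with the highest Cav2, no pump replicate 1 (55.0 CPM) and saline replicate 3 (53.4 CPM), had an index of −0.39 and −0.31. Hearts of other groups with a negative index differed in Cav2. The WT hearts without a pump, with an index of −0.29 to −0.05, had Cav2 at 48.1 to 66.4 CPM. The WT hearts with Ang/PE had an index of −0.28 to −0.02 and Cav2 at 34.8 to 45.7 CPM. MCT1KO Ang/PE replicate 5 had an index of −0.23 and Cav2 at 32.2 CPM. For Ang/PE in MCT1KO hearts the offsets took the Cav2 change from −0.48 to −0.34 against no pump and from −0.37 to −0.31 against saline. For Ang/PE against saline in MCT1KO hearts the values with offsets were −0.53 for Cav1 and −0.45 for Cavin2.

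**Figure D5:**
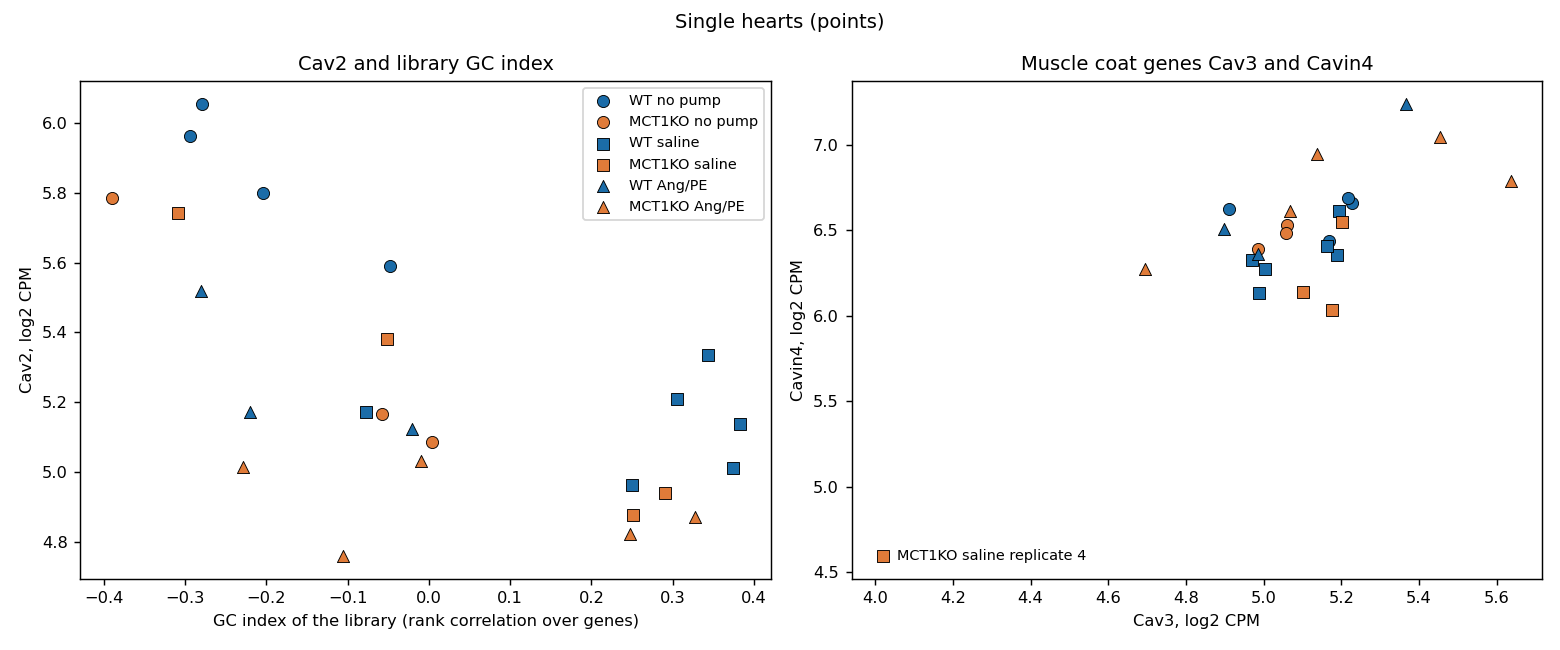
Left, log2 CPM of Cav2 against the GC index of each library (a rank correlation over genes, without unit); right, log2 CPM of Cavin4 against Cav3, each point a heart. Cav2 falls from left to right (r = −0.70 within groups), and in the right panel MCT1KO saline replicate 4 lies alone at 4.02 for Cav3.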

How the data were processed

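Total RNA of 25 hearts was sequenced, and the authors deposited 1 table of raw read counts per Ensembl gene. Per the submitters' processing notes, cutadapt 1.16, STAR 2.7.9a, featureCounts 1.6.3 and DESeq2 1.42.1 were used with GRCm39; the annotation, the strand setting and the handling of multi-mapping reads are not given in the sources used here. Genes without a symbol held 0.778% of the reads.

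Groups came from the sample titles. Differences were tested two-sided with edgeR 4.0.16 (R 4.3.3): filterByExpr, TMM scaling, a 6-group quasi-likelihood fit over all hearts (19 residual degrees of freedom), Benjamini-Hochberg adjustment over 17682 genes within each of 11 comparisons, and a call at an adjusted p below 0.05. In simulated data with 200 changed genes, the steps were tested and recovered the changes. CPM uses TMM-scaled library sizes. Transcript lengths and GC content came from GENCODE M21 (GRCm38), found for 97.1% of tested genes, because the annotation of GRCm39 was not used here. Log2 CPM for correlations had a prior count of 2.

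The members and gene lists were chosen with earlier results of these data known. From the lists, at most 3 called genes per comparison were named, those of smallest p, and the 3 most alike genes for each of Cav1, Cav2, Cav3 and Cavin4. Alternatives were DESeq2 1.42.0, RLE scaling, no low-count filter, a non-robust fit, only the groups compared, a replicate block, mitochondrially encoded genes removed, Xist, atrial and adipocyte covariates, GC and length offsets, and leaving out each heart. Same-numbered hearts are different animals, and over 52 such pairs the deviations had a mean correlation of 0.00941 (from −0.232 to 0.405), so the numbers were not treated as pairs. Replicate libraries differed beyond sampling noise in all 43 pairs (chi-square per degree of freedom at least 3.33).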

Additional observations from a re-analysis of the deposited data

Results flagged for a closer look

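Of 32 tests for a single heart far from the rest of its group, 3 were positive, and chance gives about 1 in 20. Cav3 in saline replicate 4 of the MCT1KO hearts was low, at 4.02 log2 CPM, with the next heart at 5.10. That heart also had the adipocyte and atrial marker sums given above. Cavin3 was low in saline replicate 2 of the MCT1KO hearts, at 3.83 log2 CPM, with the next heart at 4.00. Cavin3 was high in Ang/PE replicate 2 of the MCT1KO hearts, at 4.50 log2 CPM, with the next heart at 4.06.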

How the results depend on the processing

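The number of coat genes called for Ang/PE against saline in MCT1KO hearts was 2. It was 0 in the fit of only the groups compared, 1 with the replicate block, 1 with the Xist covariate and 0 with the atrial and adipocyte covariates, and 0 to 3 when single hearts were left out (0 without saline replicate 4 or Ang/PE replicate 5, 1 without any other single Ang/PE heart, and 3, with Cavin4, without saline replicate 3). DESeq2 called 3. For Ang/PE against no pump in MCT1KO hearts the number was 0, and 1 (Cavin2) with DESeq2, with the atrial and adipocyte covariates and without Ang/PE replicate 3, and 0 to 1 over the single hearts left out. Among WT hearts, Ang/PE compared with saline gave 0, and 1 (Cavin2, adjusted p 0.0277 in edgeR) in the fit of only the groups compared. In the contrast that chose the genes no calls were made, and the Cav2 difference of −0.72 was −0.44 with the atrial and adipocyte covariates, −0.40 with GC and length offsets, −0.36 with these offsets and the replicate block, and −0.81 to −0.65 with single hearts left out. The replicate block changed the number of calls in no other tested comparison. No called value changed direction under any alternative.

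The hearts labelled MCT1KO and WT without a pump number 3 and 4, and single Ang/PE hearts of the MCT1KO group decided the Cav1 call. The number of hearts with Xist was 2 of 4, 0 of 3, 1 of 6, 3 of 4, 3 of 3 and 4 of 5 in the order WT and MCT1KO without a pump, with saline and with Ang/PE. Sequencing batch is not given in the labels, so whether it differed between the groups is not known.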
